A study of Caenorhabditis elegans with 93 samples.

Results

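The transcriptome of C. elegans embryos was compared between mutation accumulation generations 4 to 20 and generation 0 of the same lineages. The comparison took 28 of the 31 RNA-seq libraries, 25 of generations 4 to 20 and 3 of generation 0, and left out the 3 libraries of generation 2. Of 27790 genes in the table, the 16699 genes with a mean normalised count of at least 10 over these 28 libraries were tested, and 11091 fell below that minimum. The animals were untreated hermaphrodites of N2, the standard laboratory strain, kept at a controlled temperature on NGM agar with a lawn of OP50 bacteria. Lineages A, B and C were each carried on by picking a pair of L4 hermaphrodites per generation, and the generations 4 to 20 are the embryos of these bottlenecked plates. Generation 0 is the founder plate of each lineage, started with a pair of hermaphrodites from an expanded population before mutation accumulation began. Worms and embryos were washed off the plates together, embryos left on the agar were added, and bleaching dissolved the worms. A sample thus holds a mix of embryonic stages, and polyA RNA was sequenced as 1 library per lineage and even generation. The RNA libraries analysed here lack lineage B at generation 4 and lineage C at generation 14. Each lineage has 1 generation 0 library, and the later libraries of a lineage descend from one another, so p-values measure the spread between these libraries. Generation number and the time of collection cannot be told apart, since all later libraries were collected after generation 0.

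In the worm embryo, transcripts laid down in the oocyte carry out the first divisions and are then degraded, while zygotic genes specify the tissues. Muscle, nerve, gut and cuticle genes come on as the embryo elongates. Genes for pathogen defence and for the breakdown of foreign compounds belong to large families that in worms respond to bacteria, diet and chemicals.

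The RNA libraries held between 42039288 and 48142198 reads in generations 4 to 20 and between 43661492 and 49318096 reads in generation 0. Tissue markers of embryos were present in all libraries. Of the 2 genes taken as markers of larvae and adults, the adult collagen col-19 had at most 9.56 normalised counts in a later library and at most 0.967 in generation 0. The other, daf-7, was higher in both groups. It had between 112 and 551 normalised counts in generations 4 to 20 (median 284), against 479, 350 and 367 in generation 0 of lineages A, B and C. The summed level of 31 major sperm protein genes was 469 at the lowest, 585 at the median and 819 at the highest in generations 4 to 20, against 482, 482 and 592 in generation 0 of lineages A, B and C, and most of it came from msp-51. The summed level of the 6 vitellogenin genes, whose yolk proteins are made in the adult gut, was between 1901 and 3042 in generations 4 to 20, against 2667, 3605 and 2700 in generation 0. The generation 0 library of lineage C stood apart from all others on the first principal component, which held 28.02% of the variance. Its score was -101.4, those of generation 0 of lineages A and B were -36.9 and -48.6, and the later libraries lay between -31.7 and 26.9. The next lowest score, -68.3, was that of generation 2 of the same lineage, placed on components fitted without it. By transcript length, too, the generation 0 library of lineage C differed. The later minus generation 0 difference had a median of 0.26 on the log2 scale in lineage C for the longest of 5 equal bins of exon length and of -0.16 for the shortest, against 0.00 and 0.02 in lineage A and -0.11 and 0.03 in lineage B. The number of genes without a read lay between 3478 and 7018 in generations 4 to 20, against 6394, 6212 and 7197 in generation 0. The mean difference within lineages was -802 genes (two-sided exact permutation test over 810 arrangements, p = 0.0753).

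Expression differed between generations 4 to 20 and generation 0 across a large part of the transcriptome, and most of the differences were smaller than 2-fold. At an adjusted p under 0.05 (limma, lineage as a block, Benjamini-Hochberg over all genes tested), 3889 genes (23.3%) rose and 4350 genes (26.05%) fell, so that 8239 (49.3%) were called. The median log2 difference was 0.60 among the genes that rose and -0.51 among those that fell, and 0.02 over all genes tested. All differences are given as later minus generation 0 on the scale of log2(normalised count + 1), which understates the change of genes with few reads. In all 3 lineages 3672 of the genes that rose and 4226 of those that fell had the same sign. The size of the difference was smallest in lineage A: the genes that rose had a median of 0.45 in lineage A, 0.61 in B and 0.70 in C, and those that fell had one of -0.30 in A, -0.51 in B and -0.74 in C. Without generation 0 of lineage C, 5049 genes were called, 2386 higher and 2663 lower.

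More of the changes of at least 2-fold were increases. Of the genes called, 753 (4.51% of those tested) rose at least 2-fold and 271 (1.62%) fell at least 2-fold, and 142 against 12 changed at least 4-fold. The minimum on the mean over 28 libraries, 25 of them later, lets in genes that are low in generation 0 more readily than the reverse. With the minimum set on the mean of the group means, so that both groups weigh equally, 667 rose and 291 fell at least 2-fold. Without generation 0 of lineage A these counts were 941 and 646, and without that of lineage C 596 and 86. The libraries of the 2 groups did not overlap in 1012 genes with every later library higher (6.06%) and in 1328 genes with every later library lower (7.95%). The lowest of 5 equal bins of mean normalised count held 394 of the increases of at least 2-fold and 69 of the decreases, and the highest held 30 and 19. With both groups weighing equally in the level and the minimum, the lowest bin held 353 increases and 70 decreases and the highest 24 and 33. Called decreases of any size lay at middle and high levels. In bin 4, 43.9% of the genes fell, against 4.64% of the lowest, and 44.7% against 4.01% with equal weights. Decreases of at least 2-fold numbered 69, 66, 64, 53 and 19 from the lowest bin to the highest.

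**Figure D1:**
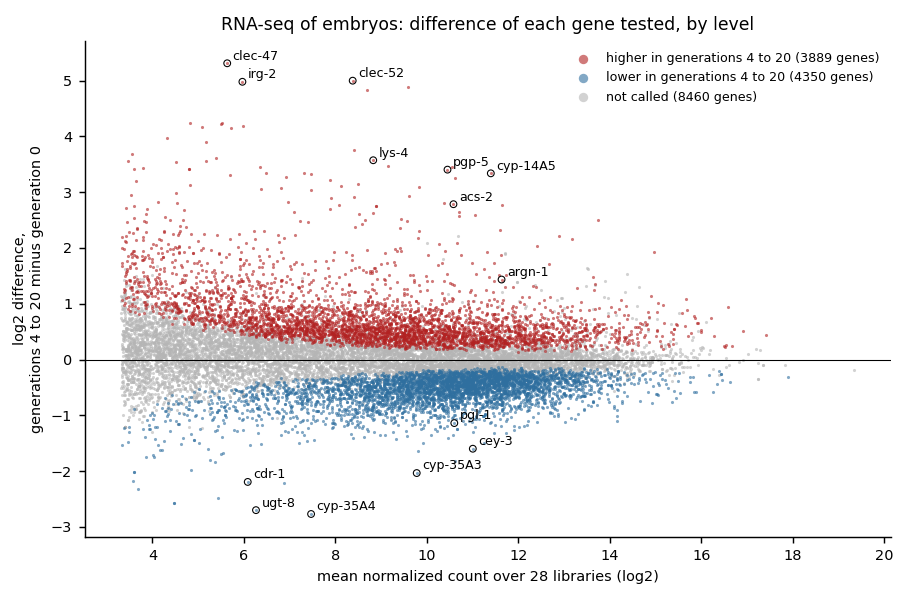
Each point is 1 of the 16699 genes tested, with its mean normalised count over the 28 libraries on the x axis (log2) and its log2 difference, generations 4 to 20 minus generation 0, on the y axis. Red points are the 3889 genes called higher and blue points the 4350 called lower, and the largest differences are increases of genes with low or middle levels.

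Among protein-coding genes with a symbol, the 8 largest increases were of 2 C-type lectin genes, irg-2, srd-65, phat-7, fbxa-50, lys-7 and lys-4. Genes with sequence names only, such as F32A7.8 (log2 difference 4.88) and C25H3.10 (4.83), lay in the same range. The C-type lectins are secreted or membrane proteins with a sugar-binding fold of which many members respond to bacteria in worms. The clec-52 gene, at 8167164 to 8168760 on chromosome IV, had between 179 and 532 normalised counts in generations 4 to 20 (median 385), against 9.23, 17.4 and 6.56 in generation 0 of lineages A, B and C. Every later library was above every generation 0 library, and the log2 difference was 4.999 ± 0.24 (SE, limma adjusted p = 4e-15). Its relative clec-48 had between 181 and 379 normalised counts in the later libraries (median 252), against 54.5, 27.1 and 26.2 in generation 0, again without overlap, and rose by 2.89 ± 0.17. For clec-47 there was 1 read in the 3 libraries of generation 0 together, against 1407 reads in the 25 later ones. Its level of 9.32 to 103 normalised counts in generations 4 to 20 (median 59.2), against 0, 0.967 and 0 in generation 0, gives a ratio of 168 with a 95% Poisson interval of 30.1 to 6623 that covers counting error only.

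Lysozymes are enzymes that cut bacterial cell walls, and lys-4 and lys-7 were among these genes. The lys-4 gene had between 233 and 1109 normalised counts in generations 4 to 20 (median 484), against 38.8, 25.1 and 60.1 in generation 0, and did not overlap (log2 difference 3.57 ± 0.31). Its relative lys-7 had between 3.82 and 31.3 normalised counts later (median 13.5), against no read in any generation 0 library. Over the group, a floor of 3 reads makes its level at least 13.2-fold higher in generations 4 to 20. The means of lys-7 were 13.2 normalised counts later and 0 in generation 0, so it passed the minimum only through the later libraries. It falls below the minimum set on the mean of the group means. The infection response gene irg-2 had between 14.7 and 217 normalised counts in generations 4 to 20 (median 61.9), against 0, 0.967 and 2.19 in generation 0. With 3 reads in the 3 generation 0 libraries, the ratio of irg-2 is 70.3 (95% Poisson interval 24.05 to 341, for counting error only).

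The other increases named for their size were of phat-7, srd-65 and fbxa-50. The phat-7 gene encodes a small secreted protein of the pharyngeal gland family. It had between 9.51 and 128 normalised counts in the later libraries (median 59.9), against 0, 3.87 and 4.37 in generation 0. The chemoreceptor gene srd-65 had between 8.64 and 70.2 normalised counts later (median 29.6), against 0, 2.90 and 0 in generation 0. Its ratio was 31.5, with a 95% Poisson interval of 10.8 to 153 for counting error only. Neither gene had overlapping groups. The F-box gene fbxa-50 ranged between 4.15 and 112 normalised counts in generations 4 to 20 (median 35.6), against 4.62, 0 and 1.09 in generation 0, so that its lowest later library was inside the range of generation 0 although it rose by 3.89 ± 0.62 (limma adjusted p = 1.15e-05).

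By their p-values, argn-1 and srh-237 joined the lectins. The argn-1 gene, on chromosome X at 5630023 to 5631825, encodes an arginase, which splits arginine into ornithine and urea. It had between 2749 and 3881 normalised counts in generations 4 to 20 (median 3513), against 1426, 1185 and 1166 in generation 0, a log2 difference of 1.43 ± 0.08 (limma adjusted p = 1.18e-13). The chemoreceptor gene srh-237 had between 221 and 399 normalised counts in the later libraries (median 294), against 28.6, 58.0 and 44.8 in generation 0. Both genes were higher in all later libraries than in any generation 0 library. The srh-237 gene overlaps ZK218.1 in the table and the counting used no strand option, so their reads cannot be told apart.

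The genes named for the largest decreases were 2 cytochrome P450 genes, 3 UDP-glucuronosyltransferase genes, dhs-23, lips-11 and cdr-1. Cytochrome P450 enzymes of the cyp-35A group, which in worms are induced by many foreign compounds, were lower in every later library. For cyp-35A4, on chromosome V at 4031619 to 4033446, there were between 56.9 and 172 normalised counts in generations 4 to 20 (median 105), against 995, 767 and 488 in generation 0, a log2 difference of -2.77 ± 0.24 (limma adjusted p = 4.76e-10). For cyp-35A3 the later libraries had between 386 and 1044 (median 670), against 3191, 2233 and 2571 in generation 0 (log2 difference -2.03 ± 0.21). The third member, cyp-35A2, had between 468 and 786 normalised counts later (median 654), against 2068, 1461 and 1474 in generation 0 (log2 difference -1.37 ± 0.13).

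UDP-glucuronosyltransferases, of which 20 members rose and 20 fell among 64 tested, attach a sugar to small molecules and so make them easier to excrete. The ugt-8 gene had between 19.3 and 77.0 normalised counts in generations 4 to 20 (median 47.8), against 233, 154 and 651 in generation 0, and fell by 2.70 ± 0.28 on the log2 scale. Its neighbour ugt-67 had between 0 and 20.3 normalised counts later (median 8.45), against 39.7, 43.5 and 42.6. The third, ugt-41, had between 7.25 and 69.2 in the later libraries (median 33.1), against 99.7, 115 and 106 in generation 0. None of the 3 genes had overlapping groups.

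The remaining large decreases were of cdr-1, dhs-23, dhs-6 and lips-11. The cdr-1 gene, known for its induction by cadmium in the gut, had between 32.3 and 77.9 normalised counts in generations 4 to 20 (median 48.3), against 242, 208 and 220 in generation 0 (log2 difference -2.19 ± 0.19). The short-chain dehydrogenase gene dhs-23 had between 22.96 and 181 normalised counts later (median 78.1), against 432, 366 and 306, and dhs-6 had between 2465 and 3897 (median 3087), against 6290, 6082 and 7036 in generation 0. For the lipase-related gene lips-11 the later libraries had between 11.4 and 100.6 (median 27.4), against 178, 122 and 166 in generation 0. In all 4 genes every later library was below every generation 0 library. Of the 21 genes named for size or p-value, fbxa-50 alone had overlapping groups. These genes were picked by the same values, which favours groups that lie apart. Over all genes tested the groups lay apart in 6.06% with later libraries higher and in 7.95% with later libraries lower.

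In the generation 2 libraries, which took no part in the test, some of these genes were at their later levels and others were not. In lineages A, B and C at generation 2, irg-2 had 93.6, 125 and 72.9 normalised counts and argn-1 had 2928, 3408 and 3234, so both were already in the range of generations 4 to 20. The clec-52 gene, with 15.6, 6.93 and 18.8, and cyp-35A4, with 968, 1065 and 663, were still near generation 0. The cdr-1 gene was between the groups, with 122, 135 and 122. Over all genes called, the generation 2 mean was nearer to the later mean in 1989 of the genes that rose (51.1%). Among the genes that fell, this held for 2767 (63.6%). The genes were called for generation 0 values away from the later ones, and the same values enter these distances. Such a choice favours a generation 2 mean nearer to the later mean. No share over genes not called is given for comparison, so no conclusion is drawn from these percentages.

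**Figure D2:**
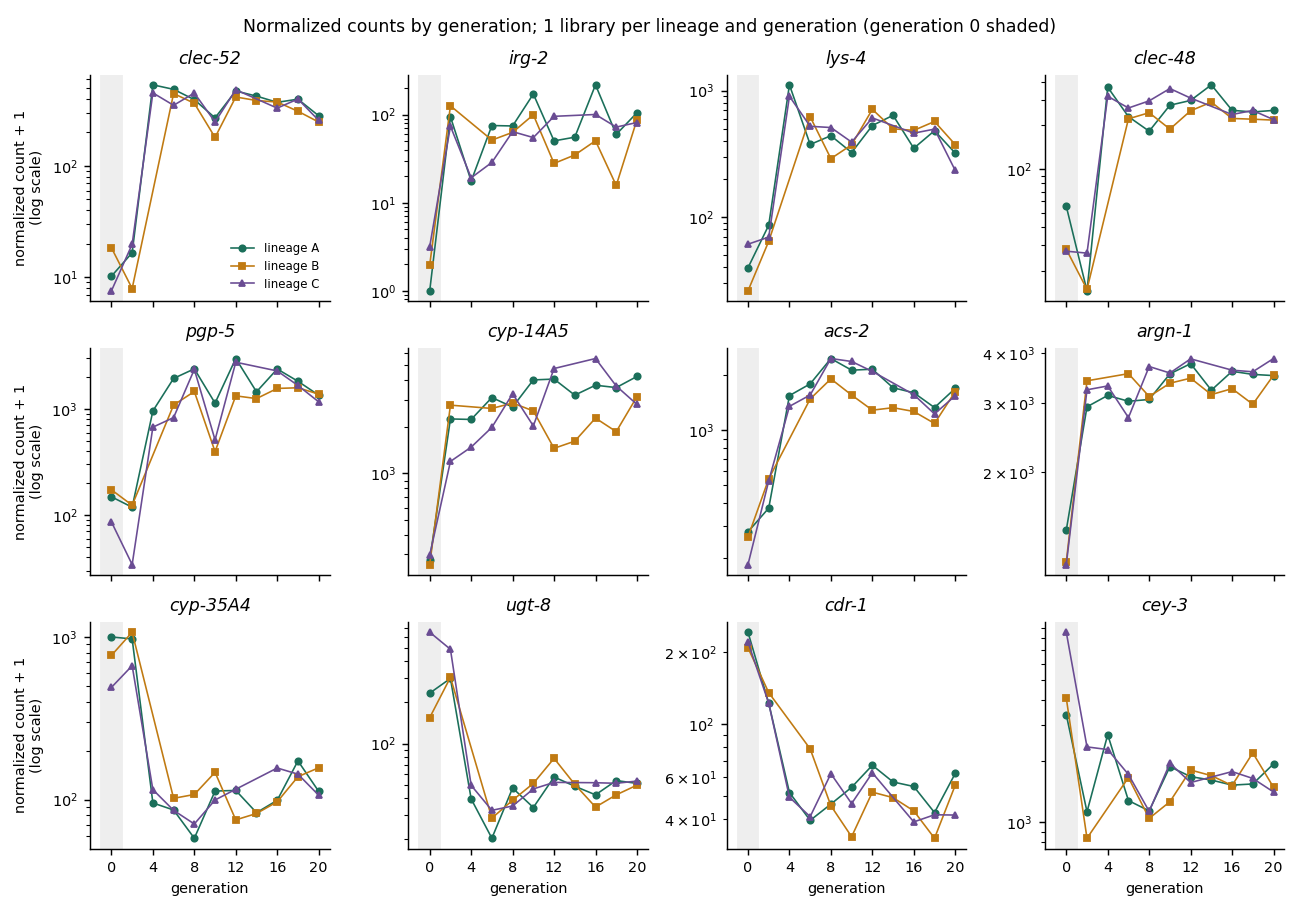
Normalised counts + 1 of 12 genes (y axis, log scale) by generation (x axis), with 1 point per library and 1 line per lineage, and generation 0 shaded. The irg-2, cyp-14A5 and argn-1 genes had left their generation 0 levels in generation 2, whereas clec-52, clec-48, pgp-5, cyp-35A4 and ugt-8 stayed near them until generation 4 or 6.

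Transcripts that the oocyte supplies to the embryo were lower in generations 4 to 20. Each list from here on is to be read beside the shares over all genes tested, 23.3% higher and 26.05% lower. Of 47 maternal and oocyte regulators, RNA-binding proteins and other factors of oocytes and early cells, 37 fell and none rose, with a median log2 difference of -0.69 (lineage A -0.32, B -0.77, C -0.93), and 31 fell without generation 0 of lineage C. Their mean log2 level was between 10.997 and 11.43 in the later libraries, against 11.53, 11.86 and 12.16 in generation 0, without overlap. The Y-box RNA-binding protein gene cey-3 had between 1047 and 2695 normalised counts in generations 4 to 20 (median 1644), against 3381, 4077 and 8581 in generation 0 (log2 difference -1.60 ± 0.21). Its relative cey-2 fell by 1.498 ± 0.27 and puf-5, a Pumilio-family repressor of oocyte mRNAs, fell by 1.501 ± 0.17. In bulk samples such as these, fewer cells of a type and less RNA per cell cannot be told apart.

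Germ granule and meiosis genes moved the same way. P granules are RNA and protein bodies that segregate with the germ lineage, and 13 of 14 P granule genes fell, none rose, and the median was -0.78 (11 fell without generation 0 of lineage C). The pgl-1 gene, a core P granule protein, had between 930 and 2058 normalised counts later (median 1350), against 2157, 2692 and 4441 in generation 0, without overlap (log2 difference -1.14 ± 0.16). The P granule gene mip-1 fell by 1.35 ± 0.17. Among 36 meiosis genes 27 fell and none rose (median -0.51). The chromosome axis genes htp-1 and him-3 fell by 1.17 ± 0.19 and 1.14 ± 0.17, and syp-2 of the synaptonemal complex fell by 0.99 ± 0.14. The germ cell marker nos-2, also a member of the maternal list, had between 1057 and 1658 normalised counts later (median 1354), against 1840, 2334 and 3453 in generation 0.

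Small RNA factors of the germline had more members lower than higher. Argonautes are the proteins that small RNAs guide to their targets, and 12 of 18 tested Argonaute genes fell while 2 rose (median -0.39), with 7 lower when lineage B was left out. The wago-1 gene, whose protein binds 22G-RNAs in P granules, had between 2151 and 4373 normalised counts in generations 4 to 20 (median 2812), against 5058, 6936 and 10158 in generation 0 (log2 difference -1.32 ± 0.18, limma adjusted p = 1.36e-06). The csr-1 gene, whose Argonaute targets germline-expressed genes, fell by 0.73 ± 0.11, and hrde-1, the nuclear Argonaute of heritable silencing, fell by 0.72 ± 0.13. The alg-1 gene, an Argonaute of the microRNA pathway, rose by 0.43 ± 0.11. Of 40 small RNA amplification genes 18 fell and 2 rose, the decreases including pid-1 (-1.06 ± 0.19), pid-3 (-1.002 ± 0.14) and mut-14 (-0.93 ± 0.14). Of 55 histone methylation genes 30 fell and 5 rose, led by set-22 (-0.94 ± 0.15), set-32 (-0.79 ± 0.15) and wdr-5.3 (-0.78 ± 0.11).

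Genes of the early zygote and of the eggshell were lower as well, with counts that depended more on single libraries. Of 55 early zygotic genes 41 fell and none rose (median -0.56), but 20 fell without generation 0 of lineage C. The med-1 gene, a GATA factor that specifies mesendoderm, had between 6.06 and 27.1 normalised counts later (median 14.6), against 27.7, 33.8 and 50.3 in generation 0. Of 23 tested eggshell genes 12 fell and 2 rose, with 7 lower without that library, and cpg-1, a chondroitin proteoglycan of the eggshell, fell by 1.43 ± 0.30. Tissue fate factors of the mid embryo gave 15 lower and 2 higher of 31 (median -0.16), among them the T-box gene tbx-9 (-0.83 ± 0.12).

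Cell division genes fell too. Of 103 cell cycle and chromosome segregation genes 71 fell and 3 rose (median -0.49), and without generation 0 of lineage C 70 fell and none rose. In 42 of the 103 every later library was below every generation 0 library, against 7.95% of all genes tested. The B-type cyclins cyb-2.2 and cyb-2.1 fell by 1.20 ± 0.16 and 1.16 ± 0.20, and the Cdc25 phosphatase gene cdc-25.3 fell by 1.06 ± 0.12. Of 76 tested histone genes 48 fell and 4 rose (median -0.61), but 19 fell without generation 0 of lineage B. Many histone copies are near-identical, the reads of his-30 and his-33 are the same in all libraries, and values of single copies are uncertain.

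Among the genes for making and destroying proteins, the proteasome moved most uniformly. The proteasome is the particle that degrades ubiquitin-tagged proteins, and 32 of its 33 genes fell, none rose, and the median was -0.69 (-0.32, -0.59 and -1.17 in lineages A, B and C), with 30 lower without generation 0 of lineage C. The core subunit gene pas-2 had between 1531 and 3037 normalised counts later (median 2124), against 3411, 3777 and 7201 in generation 0 (log2 difference -1.08 ± 0.14). Of 58 splicing genes 47 fell and 1 rose (median -0.50), including rsp-1 (-0.96 ± 0.11) and snr-5 (-1.04 ± 0.19). Of 71 translation factor and tRNA synthetase genes 50 fell and none rose (25 without generation 0 of lineage C), and of 71 mitochondrial ribosomal protein genes 37 fell and none rose (5 without that library). Cytosolic ribosomal protein genes stood apart from these lists, with 3 of 81 lower, none higher and a median of -0.05.

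**Figure D3:**
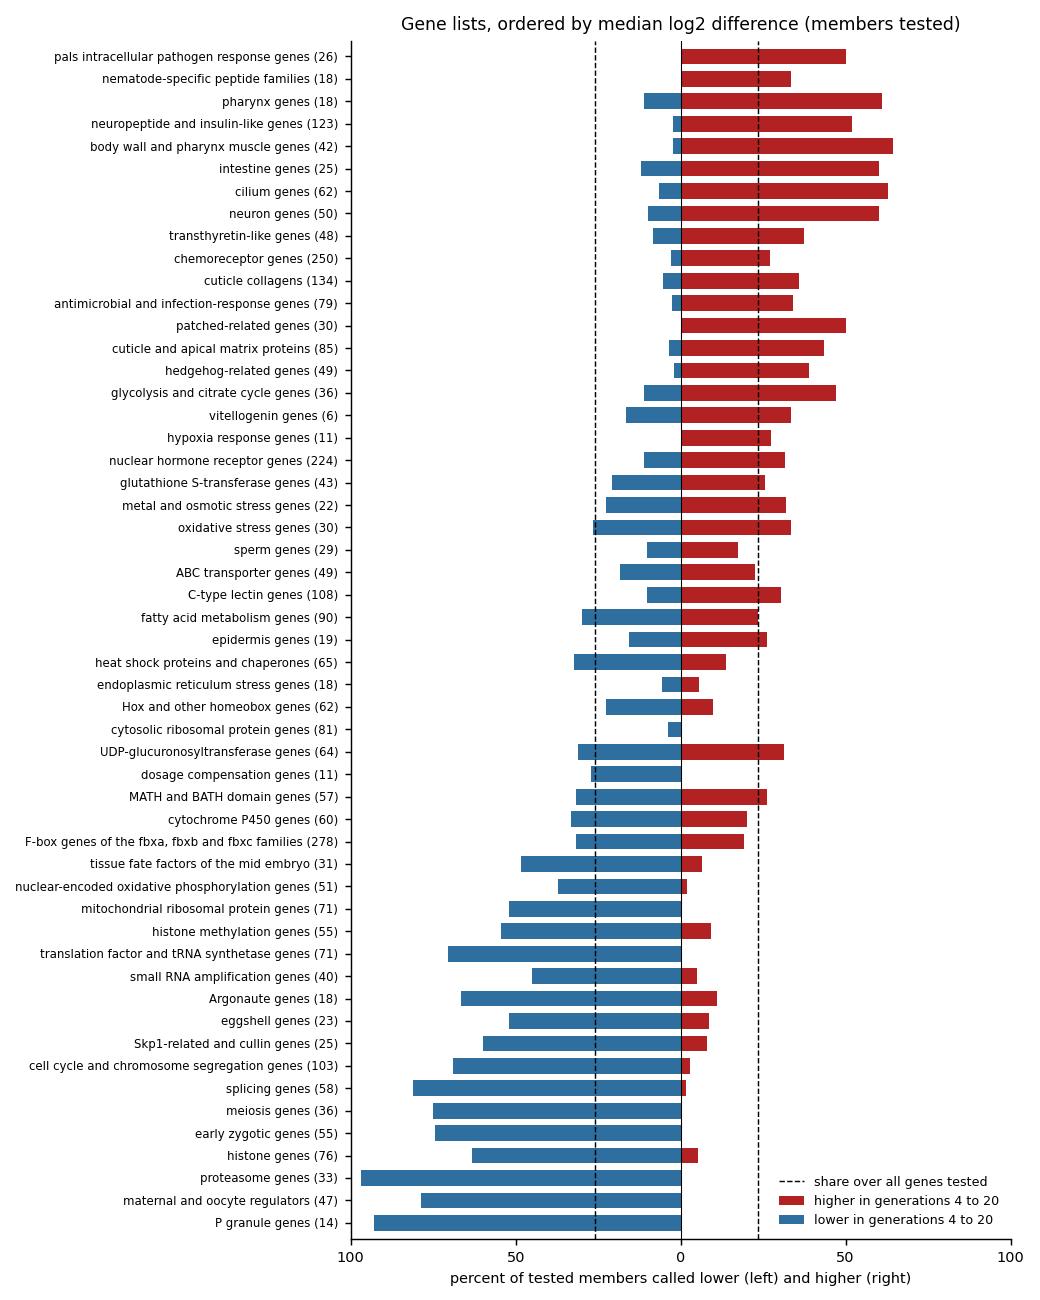
Bars give, for each gene list, the percentage of tested members called lower in generations 4 to 20 (blue, to the left) and called higher (red, to the right), with the number of members tested in brackets and the lists ordered by median log2 difference. Dashed lines mark the shares over all genes tested, 26.05% lower and 23.3% higher. P granule, maternal, proteasome and histone genes stand at the bottom and pals, peptide, pharynx and neuropeptide genes at the top.

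Most lists of genes of differentiated tissues had more members higher than lower in generations 4 to 20, while several single tissue markers, given below, did not rise. Of 50 neuron genes 30 rose and 5 fell (median 0.41), and of the tested neuropeptide and insulin-like genes 64 rose, 3 fell and 56 were not called (median 0.48), with 39 higher without generation 0 of lineage B. The egl-21 gene, a carboxypeptidase that processes neuropeptides, had between 2169 and 4062 normalised counts later (median 3004), against 1707, 1429 and 1650 in generation 0, without overlap (log2 difference 0.95 ± 0.11). The synaptic vesicle marker rab-3 had between 2677 and 4253 normalised counts later (median 3451), against 2412, 2228 and 2638 in generation 0. The neuron genes that fell were led by lin-32 (-0.56 ± 0.12) and hlh-3 (-0.39 ± 0.09), transcription factors that specify neurons early.

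Muscle, pharynx and gut genes rose in most members. Of 42 body wall and pharynx muscle genes 27 rose and 1 fell (median 0.47), but 15 rose without generation 0 of lineage C. The myosin heavy chain gene myo-3, a marker of body wall muscle, had between 21858 and 68798 normalised counts in generations 4 to 20 (median 55683), against 33549, 33659 and 19238 in generation 0. The groups overlapped, and the difference was 0.84 ± 0.24 (limma adjusted p = 0.00606). The muscle fate gene hlh-1, which acts earlier, went the other way by -0.26 ± 0.08. Among the other embryo tissue markers, the endoderm genes elt-2 and end-1 had differences of -0.08 and -0.48. The pharynx gene pha-4 had -0.16, the epidermis genes lin-26 and dpy-7 had -0.48 and 0.08, and the neuron gene unc-86 had 0.14. Of these markers end-1 and lin-26 were called lower and the others were not called. Of 18 tested pharynx genes 11 rose and 2 fell (7 higher without that library), and of 25 intestine genes 15 rose and 3 fell, with vha-6, a proton pump subunit of the gut, between 6122 and 12318 later against 5313, 4987 and 6547 in generation 0.

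Cilium and surface genes rose with more dependence on single libraries. Of 62 cilium genes 39 rose and 4 fell, but 16 rose without generation 0 of lineage C. The dynein gene che-3, a motor of ciliary transport with a long transcript, had between 346 and 3151 normalised counts later (median 2715), against 1562, 1780 and 109 in generation 0. Its difference of 1.54 ± 0.63 (limma adjusted p = 0.0460) was made of 0.39 in lineage A, 0.46 in B and 3.77 in C. Of 134 tested cuticle collagens 48 rose and 7 fell (median 0.34), with 25 higher without generation 0 of lineage B and 1 lower without that of B or of C. Of 85 tested cuticle and apical matrix genes 37 rose and 3 fell (23 higher without generation 0 of lineage C), with nas-11, an astacin protease, between 159 and 516 later against 101, 114 and 86.4 in generation 0. Patched-related genes (15 of 30 higher, none lower), hedgehog-related genes (19 of 49 higher, 1 lower) and transthyretin-like genes (18 of 48 higher, 4 lower) had medians of 0.31, 0.25 and 0.36. Without generation 0 of lineage C 9 patched-related genes rose, and without that of lineage B 10 transthyretin-like genes rose. Epidermis genes had 5 of 19 higher (26.3%, near the 23.3% over all genes) and 3 lower (median 0.02). Without generation 0 of lineage C they had 1 higher and a median of -0.14. Hox and other homeobox genes had 6 of 62 higher and 14 lower (22.6%), and dosage compensation genes had none of 11 higher and 3 lower (27.3%). These lower shares were near the 26.05% over all genes.

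These stage-linked lists also moved between later generations. The mean log2 level of the neuron genes was 10.14, 10.10 and 10.15 in generation 10 of lineages A, B and C, against a median of 10.35 over all later libraries, while generation 0 had 10.08, 9.96 and 9.82. For the body wall and pharynx muscle genes generation 10 had 13.44, 13.19 and 13.27, the later median was 13.66, and generation 0 had 13.33, 13.17 and 12.84. All 3 lineages were thus below the later median in generation 10 for both lists. The part of embryo stage in the differences of any list was not tested. Counts of 1 to 5 members of a list rest on few genes: of 33 such counts over all lists, 26 moved by over 1.5 times when 1 generation 0 library was left out.

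**Figure D4:**
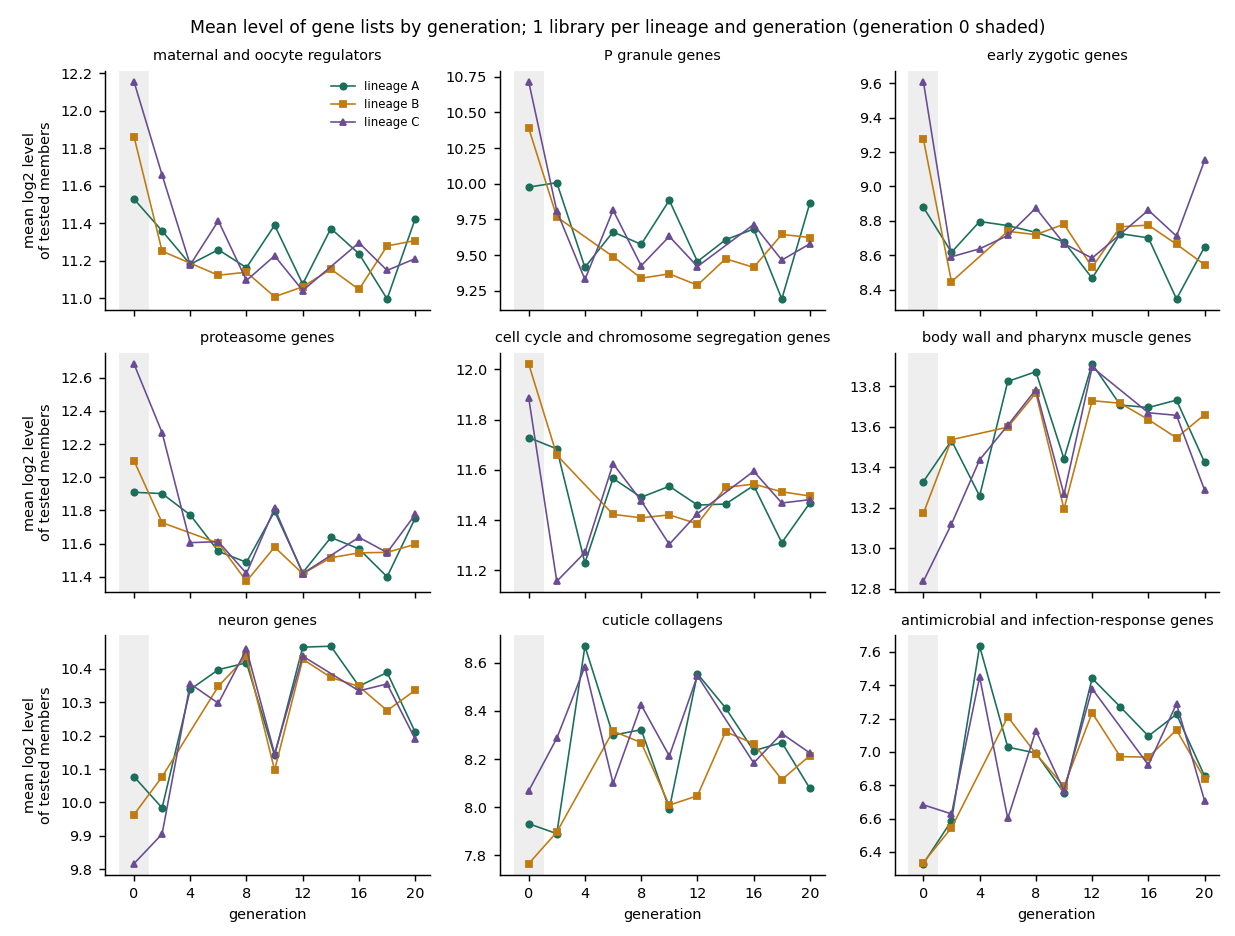
Mean log2 level of the tested members of 9 gene lists (y axis) by generation (x axis), 1 point per library and 1 line per lineage, with generation 0 shaded. The maternal, proteasome and cell cycle lists were highest in generation 0 in each lineage, the P granule list in lineages B and C, and the muscle and neuron lists dipped in generation 10 in all 3 lineages.

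Defence families held many of the increases of at least 2-fold, which were 4.51% of all genes tested. The chemoreceptor list, given below, held more of them in number (42 of 250 tested) than any single defence list. As a share it held fewer than the antimicrobial and infection-response list (19 of 79). Of 79 tested antimicrobial and infection-response genes 27 rose and 2 fell (median 0.32), 19 of the increases at least 2-fold, and 25 rose without generation 0 of lineage C. Of 108 tested C-type lectin genes 33 rose and 11 fell (median 0.06), with 15 increases of at least 2-fold and 6 lower without generation 0 of lineage C. The clec-174 gene had between 194 and 546 normalised counts in generations 4 to 20 (median 415), against 39.7, 56.1 and 34.98 in generation 0, without overlap. Those that fell included clec-91 (-1.21 ± 0.16) and clec-87 (-1.01 ± 0.18). The pals genes, a worm family linked to intracellular infection, had 13 of 26 higher and none lower, but 7 higher without generation 0 of lineage B and 2 without that of C. Their leading member pals-4 ranged between 0 and 167 normalised counts later (median 12.9), against 0, 2.90 and 0 in generation 0. Peptides of the nematode-specific nsp families had 6 of 18 higher and none lower, led by nspe-7 with between 92.3 and 326 later (median 158), against 10.2, 15.5 and 21.9 in generation 0.

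Large families of substrate receptors had members in both directions. F-box proteins bring targets to ubiquitin ligases, and of 278 tested F-box genes 53 rose (19.1%) and 88 fell (31.7%), near the 23.3% and 26.05% over all genes, with 23 increases and 4 decreases of at least 2-fold. The fbxa-82 gene had between 50.6 and 202 normalised counts later (median 111), against 19.4, 11.6 and 9.84 in generation 0, and fbxc-50 fell by 1.20 ± 0.16. Without generation 0 of lineage C 35 F-box genes rose and 47 fell. Of 57 tested MATH and BATH genes 15 rose (26.3%) and 18 fell (31.6%), with 9 lower without that library. Of 25 Skp1-related and cullin genes, the other parts of these ligases, 15 fell and 2 rose. Chemoreceptor genes, of which 250 of 1305 passed the minimum, had 68 higher (27.2%, near the 23.3% over all genes) and 7 lower (2.8%). Of their increases, 42 were at least 2-fold. Without generation 0 of lineage C 35 rose and 2 fell. Of 224 tested nuclear hormone receptor genes 71 rose and 25 fell, with 46 higher without generation 0 of lineage B, and 44 higher and 16 lower without that of C.

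Detoxification families had members in both directions, as had all genes (23.3% higher and 26.05% lower). Cytochrome P450 genes had 12 higher (20.0%) and 20 lower (33.3%) of 60 tested, with 6 higher and 14 lower without generation 0 of lineage C. The cyp-14A5 gene had between 1453 and 5523 normalised counts in generations 4 to 20 (median 2849), against 274, 257 and 296 in generation 0 (log2 difference 3.34 ± 0.27), while cyp-35C1 had between 775 and 1930 later (median 1201), against 5409, 3978 and 3518. UDP-glucuronosyltransferase genes had 20 higher and 20 lower of 64, with ugt-26 (2.08 ± 0.18) and ugt-17 (1.87 ± 0.13) opposite to ugt-8. Glutathione S-transferase genes had 11 higher and 9 lower of 43 (25.6% and 20.9%), led by gst-27 (1.65 ± 0.20), with 7 higher without generation 0 of lineage B and 3 lower without that of C. Of 49 tested ABC transporter genes 11 rose and 9 fell (22.4% and 18.4%), with 7 higher without generation 0 of lineage C and 5 lower without that of B. The pgp genes of chromosome X, given below, were 4 of the 6 increases of at least 2-fold.

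Among metabolic genes, those of glycolysis and the citrate cycle rose in more members than fell. Of 36 tested glycolysis and citrate cycle genes 17 rose and 4 fell (median 0.23). The icl-1 gene, the glyoxylate cycle enzyme that lets worm embryos turn stored fat into sugar, had between 79086 and 156523 normalised counts in generations 4 to 20 (median 101280), against 58970, 56863 and 44151 in generation 0, without overlap (log2 difference 0.94 ± 0.12). The gluconeogenesis gene pck-1 rose by 0.63 ± 0.10, and the glyceraldehyde 3-phosphate dehydrogenase genes gpd-1 and gpd-4 fell by 1.06 ± 0.19 and 1.06 ± 0.18. Fatty acid genes had 21 higher and 27 lower of 90, near the 23.3% and 26.05% over all genes (17 lower without generation 0 of lineage C). The acs-2 gene, a mitochondrial acyl-CoA synthetase known to rise on fasting, had between 1089 and 2466 normalised counts later (median 1566), against 278, 260 and 184 in generation 0 (log2 difference 2.78 ± 0.18, limma adjusted p = 1.29e-12). Of 51 tested oxidative phosphorylation genes 19 fell and 1 rose, with 5 lower without generation 0 of lineage C, among them asb-1 (-1.02 ± 0.15).

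Stress genes showed no single direction. Of 65 heat shock and chaperone genes 9 rose and 21 fell (median 0.02), with 11 lower without generation 0 of lineage C. The inducible hsp-70 gene ranged between 26.3 and 1508 normalised counts later (median 154), against 26.8, 30.9 and 8.74 in generation 0, overlaps uggt-2 in the table, and had 7227, 5888 and 12092 in generation 2. Of 30 oxidative stress genes 10 rose and 8 fell, and without generation 0 of lineage C 9 rose and none fell. The methionine sulfoxide reductase gene msra-1 had between 3926 and 13012 normalised counts later (median 6415), against 2026, 1713 and 2452 in generation 0, and the superoxide dismutase gene sod-5 rose by 1.98 ± 0.30. The metallothionein genes mtl-1 and mtl-2, which bind metals, had differences of 1.44 ± 0.18 and -1.26 ± 0.25. Hypoxia response genes had 3 of 11 higher and none lower, and none higher without generation 0 of lineage B. Of 18 endoplasmic reticulum stress genes 1 rose and 1 fell, the increase being xbp-1 (0.73 ± 0.15), a transcription factor of the unfolded protein response.

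Neighbouring genes changed together at several places, which were picked after their values were seen. On chromosome V, irg-2 and phat-7 lie beside C49G7.10, C49G7.12, C49G7.7 and K09D9.1, which rose, and beside cyp-35A3 and cyp-35A4, which fell. Of 9 genes tested from 25 kb before to 15 kb after irg-2, 6 rose, 2 fell and djr-1.2 was not called. The K09D9.1 gene had between 155 and 889 normalised counts in generations 4 to 20 (median 361), against 66.5, 51.3 and 64.5 in generation 0, and lies between the 2 genes that fell. In generation 2 K09D9.1 had 725, 1030 and 598 and C49G7.10 had 816, 1318 and 932, above their later medians of 361 and 343, while phat-7 had 3.12, 0 and 2.21 and cyp-35A4 was near generation 0.

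**Figure D5:**
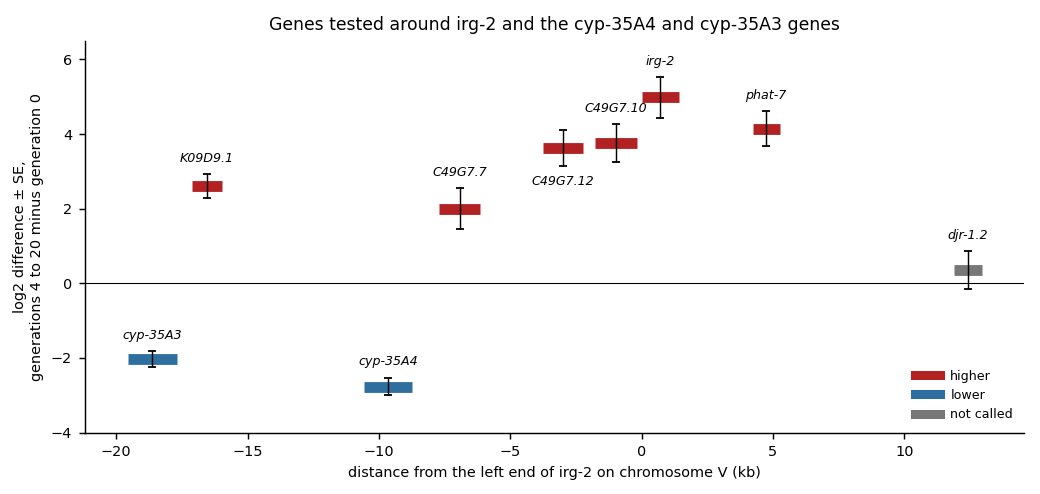
Log2 difference, generations 4 to 20 minus generation 0 (y axis), of the 9 genes tested around irg-2 on chromosome V, drawn at their distance in kb from the left end of irg-2 (x axis), with bars as long as the genes and error bars of 1 SE. Of the 6 genes that rose, K09D9.1 lies between cyp-35A3 and cyp-35A4, which fell by 2.03 and 2.77, and the others lie to the right of cyp-35A4.

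On chromosome X the P-glycoprotein genes pgp-5, pgp-8, pgp-7 and pgp-6, whose products pump small molecules out of cells, lie side by side on the minus strand between 10854216 and 10877425. The pgp-5 gene had between 396 and 2994 normalised counts in generations 4 to 20 (median 1453), against 148, 172 and 85.3 in generation 0 (log2 difference 3.40 ± 0.42). The pgp-6 gene had between 1752 and 6131 later (median 3324), against 579, 528 and 368 in generation 0. All 4 rose, by 3.40, 3.04, 2.80 and 2.78, and in none did the groups overlap. In generation 2 the pgp-5 counts were 118, 122.8 and 33.1 in lineages A, B and C, below those of generation 0. The other members were partly up by then: pgp-8 had 63.5, 55.5 and 30.9 in generation 2, against 20.3, 25.1 and 18.6 in generation 0. In lineages A and B pgp-7 had 404 and 451, against 163 and 248, and pgp-6 had 973 and 1057, against 579 and 528, while in lineage C both were below generation 0.

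The chromosomes differed in the balance of the calls. On X 807 of 2534 genes tested rose (31.8%) and 320 fell (12.6%), with a median log2 difference of 0.20. On V 28.03% rose and 20.4% fell, and V held 284 of the 753 genes that rose at least 2-fold. On I, 17.7% rose and 34.5% fell, and on III 17.5% rose and 33.5% fell. Chromosomes II and IV lay nearer to the whole, with 21.4% and 22.1% higher.

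In the 22G-RNAs of the same embryos, which are antisense small RNAs that Argonautes use, few genes were called. These libraries were uneven in depth, with 106897 reads (generation 4 of lineage A) to 1504610 reads in generations 4 to 20. Generation 0 had between 1008367 and 1611500 reads. The part of depth in the number of calls was not tested. Of 6175 genes tested, 85 (1.38%) had more 22G-RNAs in generations 4 to 20 and 35 (0.567%) had fewer by the same limma fit, and 360 (5.83%) had more and 221 (3.58%) fewer at an unadjusted p under 0.05. Of the 568 genes that rose in RNA-seq and had 22G-RNAs tested, 30 gained 22G-RNAs (5.28%) and 1 lost them. Of 2639 genes that fell, 9 gained and 10 lost them, and of 2512 genes not called in RNA-seq 37 gained and 23 lost them. The F-box gene fbxa-61 had between 48.8 and 584 normalised 22G-RNA counts later (median 155), against 13.9, 7.04 and 23.6 in generation 0, and its mRNA rose by 1.68 ± 0.22. None of the 21 genes named for size or p-value passed the minimum for 22G-RNAs, and of the 86 other named genes that did, none was called, including cey-3 and wago-1. Without generation 0 of lineage A 35 genes were called, without that of B 38 and without that of C 64.

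Chromatin accessibility, measured by ATAC-seq over 31496 regulatory elements, gave no element at an adjusted p under 0.05 by limma (0%), with 1698 higher (5.39%) and 1803 lower (5.72%) at an unadjusted p under 0.05. With 1 value per lineage, 495 elements were called. The ATAC-seq libraries held between 2995631 and 12251653 reads in generations 4 to 20 and between 7625441 and 9472742 in generation 0. Of the 947 elements nearest to genes that rose at least 2-fold, 84 were higher (8.87%) and 37 lower (3.91%) at that unadjusted level, and of the 266 nearest to genes that fell at least 2-fold, 16 were higher (6.02%) and 20 lower (7.52%). The element at the start of clec-52 had between 88.1 and 150 normalised counts later (median 114), against 88.5, 130 and 76.0 in generation 0. The element at the start of cdr-1, whose mRNA fell, had between 87.5 and 168 later (median 136), against 90.1, 99.6 and 110 in generation 0, a difference of 0.43 ± 0.15 (limma adjusted p = 0.246). In both the groups overlapped.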

How the data were processed

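RNA-seq, 22G-RNA and ATAC-seq values of embryos were read as deposited. They are signal values: for each gene or element the authors scaled the library's reads by its DESeq2 size factor. Per the paper's methods, RNA-seq and ATAC-seq reads were aligned with Bowtie2 and counted with BEDTools, for RNA-seq by a command with no strand option, so reads of overlapping genes cannot be separated, and 22G-RNAs were aligned with Bowtie. In the RNA-seq and ATAC-seq tables a value of exactly 1 stands for a count of 0 and was read as 0. In each library all values were whole multiples of 1 step, which gave back whole reads and the depths. Rows were matched by name, and for RNA-seq by place, to Ensembl release 115 (WBcel235), 27033 of 27790 RNA-seq rows and 8110 of 8479 22G-RNA rows. Of the 22G-RNA rows, 1 names no gene (0.0123% of reads) and was left out.

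Genes or elements with a mean of at least 10 over the libraries compared were tested with limma 3.58.1 in R 4.3.3 (trend, robust) on log2(value + 1), later minus generation 0, with a block for lineage, and p-values were adjusted by Benjamini-Hochberg over all features tested, at 0.05. The block is the lineage by descent, since the libraries of a lineage come from the same line of animals. Ratios of reads summed over the libraries of each group were given Poisson intervals at 95%, with a floor of 3 reads over the group for a count of 0. These intervals cover counting error only and leave out the spread between libraries. Exon length is that of the longest annotated transcript and was available for 16363 genes. The scripts were tested on simulated data. Named genes have a symbol such as clec-52, an adjusted p under 0.05 and the same sign in all lineages: the 8 protein-coding genes each way with the largest difference, the 4 each way with the lowest p, and up to 3 each way per list. Markers, genes of the neighbour groups and genes with differences between lineages are named besides. The comparison, the lists and the rules were chosen with earlier results of these data known. The alternatives were pseudocounts of 0.5 and 5, other minimums, TMM scaling, recovered reads tested by edgeR 4.0.16 or DESeq2 1.42.0, values of 1 kept, no block, 1 value per lineage, early or late generations only, and each generation 0 library or lineage left out. Another pair was chosen after seeing the data and left out the later RNA-seq libraries with under 5000 genes at 0 reads or the shallowest small RNA library, and a minimum on the mean of the group means was added likewise. Promoter sequences were not used here.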

Additional observations from a re-analysis of the deposited data

Results flagged for a closer look

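The change between generations 4 to 20 and generation 0 differed between lineages in 12 genes by the interaction of lineage and change (limma adjusted p under 0.05), and 2176 genes had an unadjusted p under 0.05 in that test. In each lineage generation 0 is 1 library, which is assumed to vary like the others. In 10 of the 12 genes lineage C stood apart and in the other two, srv-6 and srh-21, lineage B did. For nyn-1 the differences were -0.01, -0.17 and -2.85 in lineages A, B and C. For acdh-2, an acyl-CoA dehydrogenase gene, they were 1.11, 0.84 and 3.66, with 1520, 1778 and 266 normalised counts in generation 0, and ins-13, which lies within acdh-2 and can share its reads, had 1.18, 1.32 and 3.84. The chemoreceptor gene srh-34 had 0.68, 0.61 and 5.42, and its generation 0 library of lineage C had no read. In srv-6 the differences were -0.76, 3.03 and -1.14.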

How the results depend on the processing

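The RNA-seq comparison called 8239 genes, and most alternatives kept the count between 7743 (a minimum mean of 50) and 8842 (generations 12 to 20 only), with 8153 by edgeR, 8516 by DESeq2 and 8252 under TMM scaling. Without the replicate block, that is with lineage left out, 8230 genes were called. Fewer were called with 1 value per lineage (5109, 2356 higher and 2753 lower), with generations 4 to 10 only (5455, 2371 higher and 3084 lower), without lineage B (5627, 2420 higher) and without lineage C (5023, 2370 higher and 2653 lower), against 8123 without lineage A; the cause was not tested. Leaving out 1 generation 0 library at a time gave 5049 to 8094 genes, 2386 to 3729 higher and 2663 to 4365 lower, the lowest without lineage C, where 4902 of the main calls were kept in the same direction (59.5%). No alternative reversed any of the 258 named genes. They were chosen for the same sign in all lineages, so leaving out a lineage or a generation 0 library could not reverse them. Most were lost from the calls without generation 0 of lineage C (68 of 258).

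For 22G-RNAs the main count was 120. Leaving out 1 generation 0 library gave 35 to 64 genes, 31 to 49 higher and 4 to 15 lower, and without the block 88 were called, 72 higher and 16 lower. Without generation 4 of lineage A, chosen after seeing the data, 112 were higher and 44 lower. For ATAC-seq, 0 elements were called, 495 with 1 value per lineage (236 higher and 259 lower), and 0 to 5 without 1 generation 0 library, all of them higher; the cause was not tested. Generation 0 holds 3 RNA-seq libraries, 1 per lineage, which limits the precision of the differences, and for genes with few reads the counting error limits it too.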
